A study of Sus scrofa with 15 samples.

Results

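The enzymes described here break down tryptophan along the kynurenine pathway, make nicotinamide adenine dinucleotide (NAD) from its products, and recycle or discard nicotinamide. They were chosen by name: TDO2, IDO1, IDO2, KMO, KYNU, HAAO, ACMSD, QPRT, NAMPT and NNMT. All 10 had an Ensembl pig identifier with that symbol among the 31908 genes of the deposited count table, and all 10 passed the filter on low counts. The libraries were made from liver of male growing piglets of the cross Duroc x Large White x Landrace. Piglets of the LPS group had received 80 μg/kg of lipopolysaccharide, the endotoxin of Gram-negative bacteria, into the peritoneum, and those of the CON group the same dose of sterile saline. Livers were taken 4 h later. Each group had 3 input libraries, that is, polyadenylated and fragmented RNA set aside before the antibody step of an m6A experiment, so that they hold mRNA levels. The labels name no transgene or deletion in either group. The labels do not say whether a library came from 1 piglet or from a pool, and p-values measure only the spread between these libraries. The question put to each gene was whether its mRNA level differed between the LPS and CON groups.

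In the liver, TDO2 is the enzyme that normally opens the tryptophan ring, and it is known for its response to glucocorticoids and to tryptophan itself. IDO1 carries out the same step in immune and other cells and is known as a target of interferon-gamma, while IDO2 is a related enzyme of low activity. The product is turned into kynurenine, which KMO hydroxylates. KYNU cleaves the hydroxylated product on the way to NAD, and can also cleave kynurenine itself. HAAO then makes an unstable intermediate that turns into quinolinic acid, from which QPRT forms the nicotinic acid ribonucleotide used for NAD. ACMSD draws on the same intermediate and sends it away from NAD. NAMPT, the rate-limiting enzyme of NAD salvage, and NNMT, which methylates nicotinamide for disposal with S-adenosylmethionine as the methyl donor, compete for nicotinamide.

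Total counts were 5927348 to 10351491 in the CON libraries and 4348478 to 19967417 in the LPS libraries, and levels are given as CPM, read counts relative to library size, scaled by the trimmed mean of M values (TMM). LPS replicate 2 was closer to the CON libraries than the other LPS libraries were. Across tested genes its log2 CPM correlated at 0.928 to 0.949 with the CON libraries, where LPS replicates 1 and 3 gave 0.844 to 0.906. Its correlation was 0.914 with LPS replicate 1 and 0.858 with LPS replicate 3. LPS replicates 1 and 3 correlated at 0.909, so LPS replicate 1 was no closer to LPS replicate 3 than to LPS replicate 2. Results that rest on LPS replicate 2 are therefore given with and without it. Because it was singled out by its likeness to the CON libraries, leaving it out by itself favours larger differences between the groups. Without it edgeR called 512 genes higher and 470 lower, against 39 and 19 without LPS replicate 3, the next most. Calls made without LPS replicate 2 are thus descriptions and no separate support for a difference. Of 10 hepatocyte markers all 10 were measured, and ALB and APOA1 had the highest levels per kilobase among them, while SERPINA1, a major liver transcript, had only 1.23 to 7.17 CPM in this table. In bulk tissue, fewer cells of a type and less RNA per cell cannot be told apart.

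With all 6 libraries, edgeR called 0 of the 10 enzymes under a rule that asked for an adjusted p below 0.05 together with a change of more than 1.5-fold and that called 0.0548% of the 12774 tested genes. At an unadjusted p below 0.05 it separated 2 of the 10, NNMT and QPRT, against 12.5% of all tested genes. DESeq2 called 1 of the 10, NNMT, against 2.81% of the genes to which it gave an adjusted p. A DESeq2 fit that left out LPS replicate 2, added after the data were seen, called 4 of the 10, against 10.9% of genes. When LPS replicate 2 was left out, edgeR called NNMT higher, against a background of 3.76% of genes called higher, and HAAO and QPRT lower, against 3.45% called lower. All 3 LPS libraries lay above all 3 CON libraries for 1 enzyme, NNMT, as they did for 6.52% of tested genes, and all 3 lay below for 1 enzyme, QPRT, as they did for 9.8%. Across the 10 enzymes, 5 fold changes were positive and 5 negative, with a median log2 value of −0.01, beside a median of 0.01 over all tested genes.

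**Figure D1:**
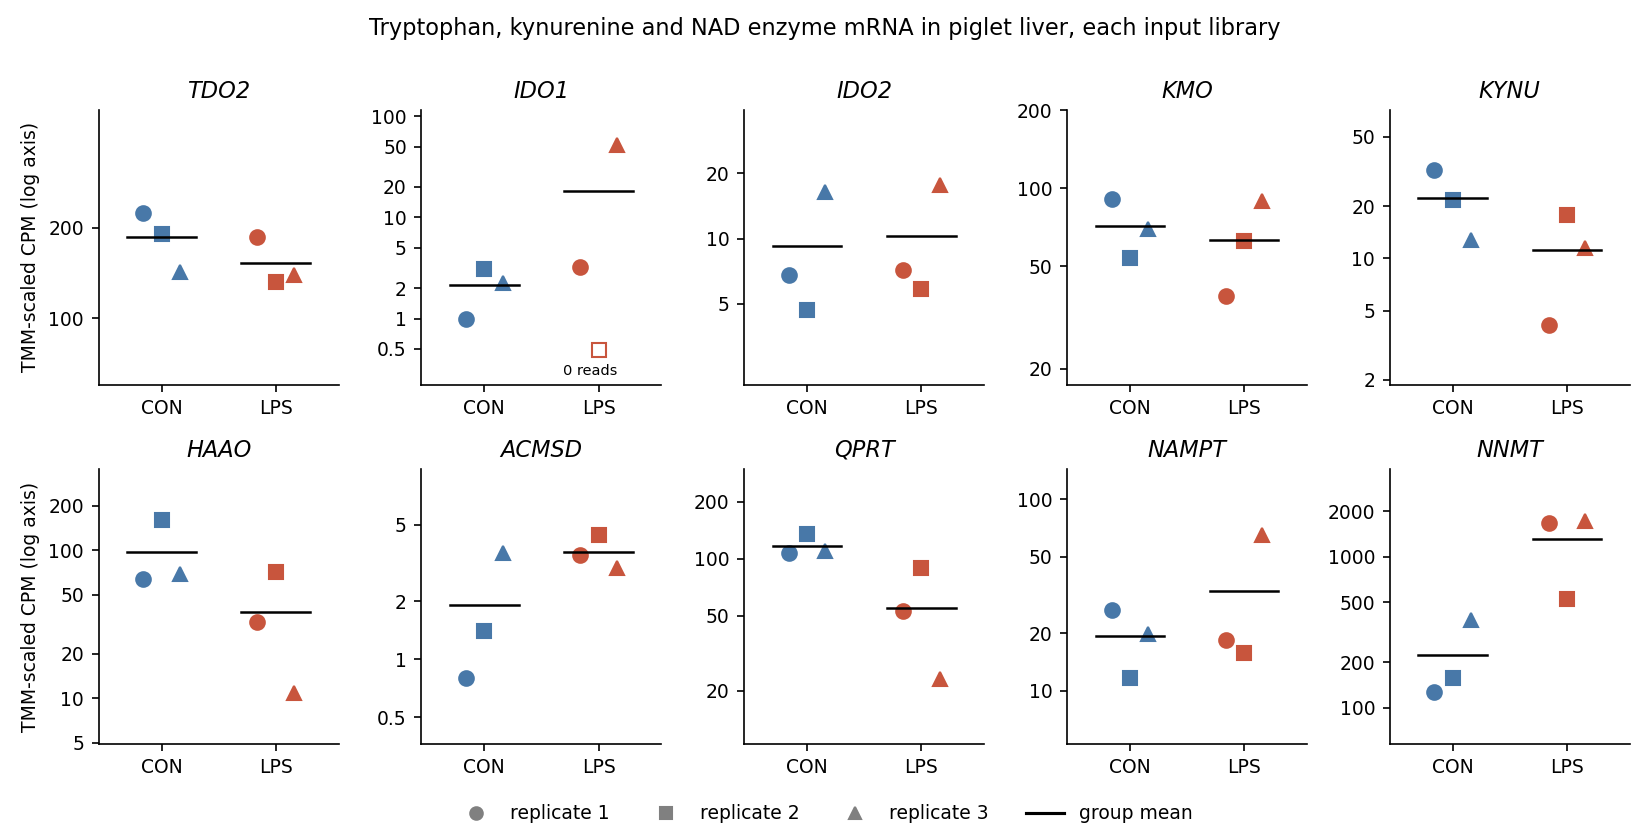
Level of each of the 10 enzymes in each input library, as TMM-scaled CPM on a log axis that differs between panels. Blue symbols are CON libraries, red symbols LPS libraries, the shape gives the replicate number, the bar is the group mean, and the open square for IDO1 marks a library with 0 reads, drawn at the level of 3 reads. The LPS libraries lie wholly above the CON libraries for NNMT (528 to 1727 against 128 to 382 CPM) and wholly below them for QPRT (23.2 to 88.9 against 108 to 135 CPM).

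To compare the enzymes with each other, CPM was divided by the summed exon length in kilobases (RPKM). In the CON group NNMT was the most abundant at 181 ± 112 RPKM (SD, n = 3), and its 3 libraries did not overlap with those of QPRT, the next in order at 70.4 ± 9.04. QPRT, HAAO at 57.7 ± 32.0 and TDO2 at 47.4 ± 10.5 RPKM overlapped with their neighbours. KMO followed at 19.0 ± 4.95 RPKM, apart from TDO2 above it and from IDO2 below it. The 5 lowest were IDO2 (4.70 ± 3.16), KYNU (4.02 ± 1.76), NAMPT (1.95 ± 0.745), ACMSD (1.71 ± 1.28) and IDO1 (1.25 ± 0.634), and each overlapped with the next. In the LPS group NNMT was again first, at 1060.8 ± 548 RPKM, and did not overlap with TDO2, the second at 39.0 ± 7.54. Every neighbouring pair below TDO2 in the LPS order overlapped. IDO1 stood sixth there at 10.8 ± 17.1 RPKM, an SD larger than its mean.

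The enzymes that open the ring did not pass the test. TDO2 (ENSSSCG00000008868, chromosome 8, 44708746 to 44740980, plus strand) had 224, 191 and 142 CPM in CON replicates 1 to 3 and 187, 132 and 140 CPM in LPS replicates 1 to 3. The LPS libraries lay within or just below the range of the CON libraries. The log2 fold change was −0.28 ± 0.32 (SE), with an adjusted p of 0.756 in edgeR's quasi-likelihood test. Coordinates are printed as the deposited table gives them, and the sources used here do not name its genome build.

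IDO1 (ENSSSCG00000007007, chromosome 17, 9245196 to 9260491, plus strand) gave the widest spread. Its CON libraries held 11, 20 and 23 reads, or 0.980, 3.12 and 2.27 CPM. The LPS libraries held 15, 0 and 762 reads, or 3.26, 0 and 51.9 CPM, where 0 reads allow up to 0.489 CPM (3 reads, counting error only). One LPS library was thus 16.7 times the highest CON library, one was near the CON level and one had no read. LPS replicate 3 held 98.1% of the IDO1 reads of the LPS group, beside 67.0% of all its counts, and 94.1% of its summed IDO1 CPM. The log2 fold change was 3.18 ± 1.41, with an unadjusted p of 0.0507 and an adjusted p of 0.401 in edgeR. Without LPS replicate 3 the log2 fold change was −0.42, so that 1 library set both its size and its direction. edgeR without a filter on low counts called IDO1 (adjusted p = 1.20e-08), in a setting that called 536 genes higher and 349 lower of 23529. DESeq2 on the same 6 libraries gave an adjusted p of 0.572. Over 19 settings the adjusted p of IDO1 ranged from 1.20e-08 to 0.971, and 2 settings called it, one of them (DESeq2 without LPS replicate 2) chosen after seeing the data.

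IDO2 (ENSSSCG00000023054) lies 16577 bases beyond IDO1 on the same strand, at 9277069 to 9343749 of chromosome 17. Its levels were 6.77, 4.67 and 16.4 CPM in the CON libraries and 7.17, 5.87 and 17.8 CPM in the LPS libraries. The highest library of each group was replicate 3 and the groups overlapped. The log2 fold change of 0.16 ± 0.56 had an adjusted p of 0.933 in edgeR, and it was −0.06 when libraries were scaled by total counts. In LPS replicate 3, where IDO1 was above every other library, IDO2 was close to its level in CON replicate 3.

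Genes known to respond to interferon-gamma, an inducer of IDO1, were examined beside it, and each one named here was at its highest in LPS replicate 3. The chemokine gene CXCL10 had 243, 193 and 167 CPM in the CON libraries and 542, 104 and 2933 CPM in the LPS libraries. SOCS1, a feedback inhibitor of cytokine signalling, had 15.1 to 27.6 CPM in the CON libraries and 81.1, 8.97 and 129 CPM in the LPS libraries. In LPS replicate 2, where IDO1 had no read, both genes were below every CON library. Of 15 genes of the list that were tested, 12 had a positive and 3 a negative fold change, with a median log2 value of 0.79. An unadjusted p below 0.05 in edgeR was reached by 5, or 33.3%, beside 12.5% of all tested genes. All 5 were higher (IFNGR2, CXCL10 and SOCS1 by the naming rule, and CXCL9 and JAK1, which were named after their values were seen). After adjustment over all genes edgeR called 0, as did DESeq2. Without LPS replicate 2 edgeR called 4 of the 15 higher (IFNGR2, CXCL9, CXCL10 and SOCS1). The median of the list relative to the CON mean was 0.64, −0.93 and 1.69 on the log2 scale in LPS replicates 1 to 3. Dendritic cell markers, 4 of 7 with an identifier, summed to 12.3 to 16.4 CPM in the CON libraries and to 15.4, 11.6 and 40.2 CPM in LPS replicates 1 to 3, and each of the 4 had a read in at least 1 library. CCR7 made up 32.8 CPM of the last of these sums, while FLT3 (4.81 to 6.39 CPM in the CON libraries, 1.96 to 5.06 in the LPS libraries) and XCR1 (4.36 to 5.88 and 1.74 to 4.84 CPM) stayed at or below the top of their CON range in all LPS libraries. Of the 3 tested, 2 had a negative fold change, with a median log2 value of −0.73. Their part in the IDO1 levels was not tested.

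A list of genes known to respond to glucocorticoids, as TDO2 does, was set beside it. The clock gene PER1 had 54.9, 123 and 129 CPM in the CON libraries and 377, 101 and 577 CPM in the LPS libraries (log2 fold change 1.78 ± 0.59, edgeR adjusted p = 0.270). DUSP1, a phosphatase of MAP kinases, had 35.5 to 46.6 CPM in the CON libraries and 94.4, 20.4 and 532 CPM in the LPS libraries. In both, LPS replicate 2 lay within or below the CON range and the other LPS libraries above it. ZBTB16, a transcription factor gene, had a log2 fold change of 1.35 ± 0.60 at an adjusted p of 0.392. Of 9 listed genes tested, 6 had a positive fold change. In edgeR 3 of them, or 33.3% of the 9, had an unadjusted p below 0.05, all higher, beside 12.5% of all tested genes. After adjustment edgeR called 0, whereas DESeq2 called PER1 (adjusted p = 0.0464). Without LPS replicate 2 edgeR called 3 of the 9 higher (PER1, DUSP1 and SGK1, a kinase gene named after its values were seen), while TDO2 had a log2 fold change of −0.19 with an adjusted p of 0.797.

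KMO takes kynurenine, and KYNU takes the product of KMO and can also take kynurenine. KMO (ENSSSCG00000025686, chromosome 10, 12431982 to 12490409, plus strand), the hydroxylase, had 91.1, 53.9 and 69.6 CPM in the CON libraries and 38.3, 62.5 and 88.9 CPM in the LPS libraries. LPS replicate 1 lay below every CON library and the other LPS libraries lay inside the CON range, and the log2 fold change was −0.18 ± 0.37 (adjusted p = 0.882, edgeR). KYNU (ENSSSCG00000015673, chromosome 15, 8850665 to 8982945, minus strand), the hydrolase, had 32.3, 21.8 and 12.8 CPM in the CON libraries and 4.13, 17.8 and 11.5 CPM in the LPS libraries. LPS replicates 1 and 3 lay below every CON library and LPS replicate 2 between them. Its log2 fold change was −0.99 ± 0.52 with an adjusted p of 0.474 in edgeR.

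HAAO (ENSSSCG00000038660, chromosome 3, 97580851 to 97595021, plus strand), the dioxygenase that makes the precursor of quinolinic acid, had 64.2, 161 and 69.0 CPM in the CON libraries. The LPS libraries had 32.8, 71.0 and 10.8 CPM. LPS replicates 1 and 3 were below every CON library, and LPS replicate 2 was above 2 of them. The log2 fold change over all libraries was −1.36 ± 0.63, with an unadjusted p of 0.0580 and an adjusted p of 0.421 in edgeR. Without LPS replicate 2 it was −2.19 and the adjusted p was 0.0484 in edgeR, so HAAO was called lower in that fit. It was called in 3 of 20 settings, one of them chosen after seeing the data, with adjusted p from 0.00174 to 0.952. The size of the CON spread came mainly from CON replicate 2, at 161 CPM.

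QPRT (ENSSSCG00000027454, chromosome 3, 17987242 to 18001713, plus strand), the enzyme that commits quinolinic acid to NAD, had 108, 135 and 110 CPM in the CON libraries. The LPS libraries had 53.0, 88.9 and 23.2 CPM, and the highest of them was 0.827 times the lowest CON library. The groups did not overlap. The log2 fold change was −1.09 ± 0.45, a ratio of 0.468, with an unadjusted p of 0.0362 and an adjusted p of 0.366 in edgeR. Without LPS replicate 2 it was −1.63 with an adjusted p of 0.0399 in edgeR, and QPRT was called lower. DESeq2 with all libraries gave an adjusted p of 0.276. QPRT was called in 2 of 20 settings, one of them chosen after seeing the data, with adjusted p from 0.00441 to 0.745.

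HAAO and QPRT had the same libraries at both ends of their range. LPS replicate 3 was lowest and LPS replicate 1 second lowest for both, and CON replicate 2 was highest for both, while LPS replicate 2 was above CON replicates 1 and 3 for HAAO and below them for QPRT. Over the 6 libraries their log2 CPM values had a Pearson correlation of 0.97, given as a description, since the points share library depth and group. Hepatocyte markers, 10 of 10 measured and none at 0, summed to 59629 to 76768 CPM in the CON libraries and to 37594, 43376 and 72480 CPM in LPS replicates 1 to 3. The library with the lowest HAAO and QPRT levels thus had the highest hepatocyte sum of the LPS group. That sum was made up largely of ALB (20257 to 37898 CPM in the CON libraries, 12345 to 19631 in the LPS libraries) and APOA1 (15947 to 20689 and 12497 to 29076 CPM). Of the 10 markers 4 had a positive and 6 a negative fold change. ASGR1 had 263 to 343 CPM in the CON libraries and 160, 175 and 103 CPM in LPS replicates 1 to 3. HNF4A had 205 to 558 CPM and 727, 276 and 599 CPM. Both were named after their values were seen. The part of hepatocytes in the HAAO and QPRT levels was not tested.

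ACMSD (ENSSSCG00000015699, chromosome 15, 17106724 to 17163899, minus strand) was a low-count gene, with 9, 9 and 36 reads in the CON libraries and 16, 27 and 44 reads in the LPS libraries. These were 0.802, 1.40 and 3.55 CPM against 3.48, 4.40 and 2.997 CPM. CON replicate 3 lay among the LPS libraries, and the other CON libraries lay below them. On the log2 scale the fold change was 0.90 ± 0.59 with an adjusted p of 0.563 in edgeR, and without CON replicate 3 it was 1.75 (adjusted p = 0.426).

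**Figure D2:**
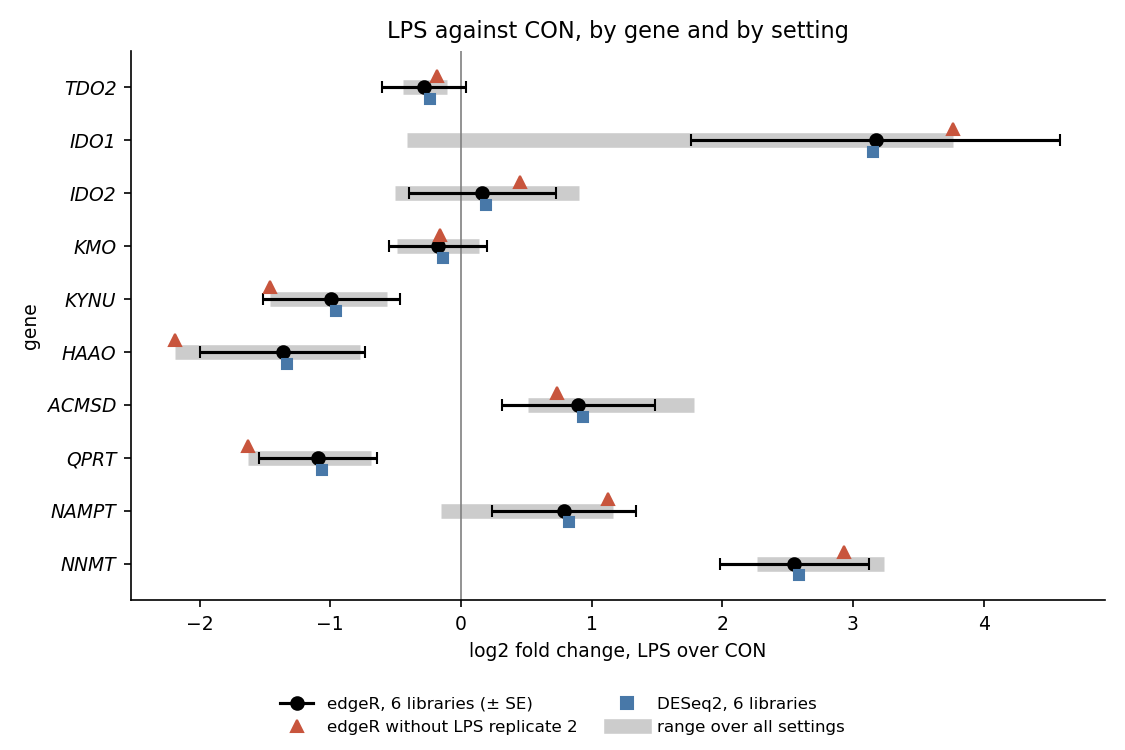
Log2 fold change of each enzyme, LPS over CON. Black circles and bars are the edgeR estimate ± SE from 6 libraries, red triangles edgeR without LPS replicate 2, blue squares DESeq2, and grey bands the range over the main setting and all alternatives. The band lies wholly above 0 for ACMSD and NNMT and wholly below 0 for TDO2, KYNU, HAAO and QPRT, and it crosses 0 for IDO1, IDO2, KMO and NAMPT.

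NAMPT (ENSSSCG00000015435, chromosome 9, 106119899 to 106294587, minus strand) had 26.4, 11.7 and 19.7 CPM in the CON libraries and 18.5, 15.8 and 65.0 CPM in the LPS libraries. LPS replicate 3 was the highest of the 6 libraries, and the other LPS libraries lay inside the CON range. On the log2 scale the fold change was 0.79 ± 0.55 with an adjusted p of 0.597 in edgeR, and without LPS replicate 3 it was −0.15. NAMPT is also a gene of activated neutrophils. Neutrophil markers, 9 of 13 with an identifier and each with a read in at least 1 library, summed to 22.6 to 34.1 CPM in the CON libraries and to 178, 88.4 and 326 CPM in LPS replicates 1 to 3. The most abundant were the calgranulin genes S100A12 (0.779 to 5.26 CPM in the CON libraries, 45.7, 18.3 and 153 CPM in the LPS libraries) and S100A8 (0.312 to 0.395 CPM and 14.1, 5.06 and 25.6 CPM). The library with the highest NAMPT level was the one with the highest neutrophil sum, while LPS replicate 1, with a sum of 178 CPM, had 18.5 CPM of NAMPT, within the CON range. The part of neutrophils in the NAMPT levels was not tested.

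NNMT (ENSSSCG00000015054, chromosome 9, 41870980 to 41882760, plus strand) showed the clearest separation of the 10. It had 128, 159 and 382 CPM in the CON libraries and 1666, 528 and 1727 CPM in the LPS libraries. Every LPS library was above every CON library, and the lowest LPS library was 1.38 times the highest CON library. LPS replicates 1 and 3 were close to each other, LPS replicate 2 lay nearer the CON group, and CON replicate 3 was above the other CON libraries. On the log2 scale the fold change was 2.55 ± 0.57, a 5.87-fold higher level. Its unadjusted p of 0.00128 in edgeR ranked 115 of 12774 genes, and the adjusted p over all of them was 0.142, so that edgeR did not call it.

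NNMT was called under other settings. DESeq2 gave a log2 fold change of 2.59 with an adjusted p of 0.000276, and edgeR without LPS replicate 2 gave 2.93 with an adjusted p of 0.00652. Of the 6 edgeR fits that left out 1 library, that without LPS replicate 2 alone called NNMT, and the fit without CON replicate 3 gave the largest log2 fold change of the 6, 3.21 (adjusted p = 0.265). The same 6 fits by DESeq2, chosen after seeing the data, each called it. These fits share most of their libraries, so they are not separate tests. The one without LPS replicate 2 called 10.9% of all genes, and this share was not taken for the others. NNMT passed both thresholds in 4 of the 14 settings other than these DESeq2 fits. Over all 20 settings its log2 fold change ranged from 2.27 to 3.24 and its adjusted p from 5.74e-08 to 0.670. Neutrophil markers were higher in all 3 LPS libraries too, with the sums given above. Kupffer cell or macrophage markers, 11 of 13 with an identifier, summed to 2006 to 3253 CPM in the CON libraries and to 1372 to 2310 CPM in the LPS libraries. The most abundant were C1QC (436 to 651 and 271 to 517 CPM) and C1QB (513 to 1088 and 399 to 792 CPM). All 11 had a negative fold change, with a median log2 value of −0.48. For 3 of them every LPS library lay below every CON library, as for 9.8% of all tested genes. Without LPS replicate 2 edgeR called 1 of the 11 lower, beside 3.45% of genes. Markers of cholangiocytes or stellate cells, 9 of 10 with an identifier, summed to 771 to 1095 CPM in the CON libraries and 558 to 1229 CPM in the LPS libraries. The latter sum was mostly COL1A1 and COL3A1. Of the 9 tested, 5 had a positive and 4 a negative fold change, with a median log2 value of 0.21. Some of those with a positive fold change, named after their values were seen, are given here. The keratin gene KRT7 had 3.12 to 5.72 CPM in the CON libraries and 8.26, 11.6 and 19.8 CPM in the LPS libraries (DESeq2 adjusted p = 0.0379), EPCAM 0.935 to 2.14 and 2.32 to 5.71 CPM, both with no overlap, and ACTA2 17.5 to 56.9 CPM and 37.6, 71.3 and 396 CPM. The part of any of these cell types in the NNMT levels was not tested.

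No member shared an exon base with another gene of the table. The spans of TDO2, QPRT and NAMPT held or met genes on the opposite strand (CTSO, MYL11 and a pair of genes without a symbol), and that of KYNU held a gene without a symbol on its own strand. The summed exon lengths, from 1125 bases for ACMSD to 9877 bases for NAMPT, cover all annotated transcripts, so the level per kilobase of a gene with long alternative exons may be understated.

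NNMT and NAMPT take the same substrate. KYNU and KMO can both take kynurenine, but KYNU also acts on the product of KMO, so their ratio does not stand for competition alone. ACMSD takes the intermediate that HAAO makes, and QPRT the quinolinic acid that forms from it. NAMPT and QPRT feed NAD from different substrates. These pairs were compared as log2 ratios of reads per kilobase within each library, which need no scaling between libraries. With 3 libraries against 3 the two-sided exact permutation test cannot give a p below 0.1, and 4 ratios were compared. ACMSD over QPRT, the route away from NAD against the route to it, was −6.42, −5.94 and −4.36 in the CON libraries and −3.32, −3.74 and −2.37 in the LPS libraries. All LPS ratios were above all CON ratios, a difference of 2.43 between means of −5.58 ± 1.08 and −3.15 ± 0.70 (SD, n = 3, exact permutation p = 0.1). On a linear scale ACMSD stayed well below QPRT throughout, with ratios from 0.0116 to 0.193. The ratio rests on 9 to 44 ACMSD reads a library, and without CON replicate 3 the difference was 3.04.

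NNMT over NAMPT, disposal against salvage of nicotinamide, was 5.28, 6.76 and 7.27 in the CON libraries and 9.49, 8.06 and 7.73 in the LPS libraries. All LPS ratios were again above all CON ratios, with a difference of 1.99, or 3.97-fold (exact permutation p = 0.1, the smallest possible). NAMPT over QPRT, salvage against synthesis from tryptophan, averaged −5.24 ± 0.77 in the CON libraries and −3.41 ± 2.07 in the LPS libraries, and the groups overlapped (difference 1.83, exact permutation p = 0.3). That difference was 0.67 without LPS replicate 3 and 2.66 without LPS replicate 2, and in the latter case the groups no longer overlapped. KYNU over KMO averaged −2.31 ± 0.61 and −3.21 ± 0.73 and also overlapped (difference −0.90, exact permutation p = 0.2), but not without LPS replicate 2 or without CON replicate 3.

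**Figure D3:**
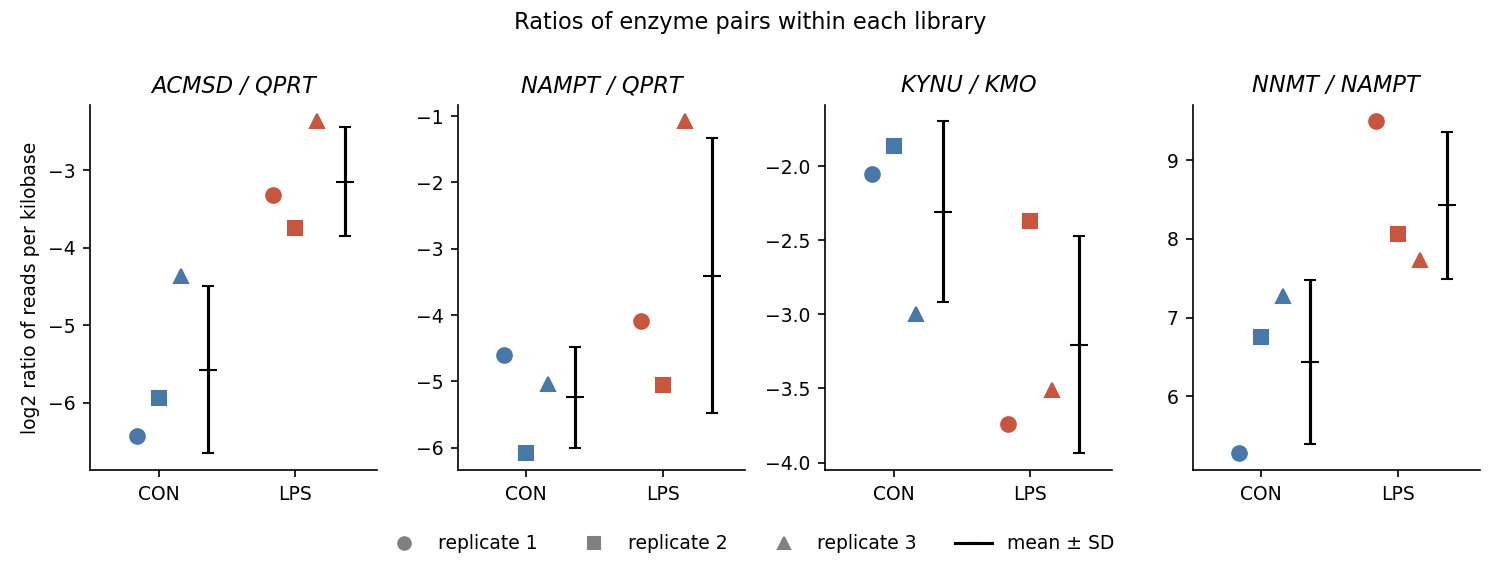
Log2 ratio of reads per kilobase for 4 pairs of enzymes, in each library, with a vertical axis that differs between panels. Blue symbols are CON and red symbols LPS libraries, the shape gives the replicate number, and the bars are mean ± SD. The LPS libraries lie wholly above the CON libraries for ACMSD over QPRT and for NNMT over NAMPT, and the groups overlap for the other pairs.

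The methyl donor side of the NNMT reaction held the lowest p of the 8 related lists. MAT1A, the liver enzyme that makes S-adenosylmethionine, had 750, 1170 and 699 CPM in the CON libraries and 225, 200 and 78.7 CPM in the LPS libraries, with no overlap. Its log2 fold change was −2.38 ± 0.45 with an adjusted p of 0.0982 in edgeR, and DESeq2 called it lower (adjusted p = 6.11e-05). GNMT, which consumes S-adenosylmethionine by methylating glycine, had 86.2, 193 and 200 CPM in the CON libraries and 622, 438 and 253 CPM in the LPS libraries, also with no overlap. On the log2 scale the fold change of GNMT was 1.45 ± 0.45 with an adjusted p of 0.246 in edgeR, and DESeq2 called it higher (adjusted p = 0.0474). Other methyl-donor genes of the list were not shifted. MAT2A, MAT2B, AHCY and CBS, named after their values were seen, had log2 fold changes of 0.02, −0.18, −0.07 and −0.02. Their adjusted p ran from 0.867 to 0.994 in edgeR.

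Enzymes that handle nicotinamide products fell into the same list. AOX1, the oxidase that turns methylnicotinamide into pyridones, had 323 to 521 CPM in the CON libraries and 90.2, 254 and 169 CPM in the LPS libraries (log2 fold change −1.40 ± 0.42, edgeR adjusted p = 0.235). PNP, the phosphorylase that frees nicotinamide from its riboside, had 1.87 to 2.49 CPM in the CON libraries and 5.00, 2.94 and 14.0 CPM in the LPS libraries (1.77 ± 0.58, edgeR adjusted p = 0.268). With all 6 libraries and the filter on low counts, edgeR called neither, nor did DESeq2. edgeR without the filter called AOX1 lower (adjusted p = 0.0226) and PNP higher (adjusted p = 0.0294). That setting called 536 genes higher and 349 lower of 23529. In all, 3 of the 10 genes tested had a positive and 7 a negative fold change, with a median log2 value of −0.13. edgeR called 0 of them with all libraries, and 1 higher (PNP) and 3 lower (MAT1A, AOX1 and BHMT) without LPS replicate 2. BHMT, a methyltransferase that remakes methionine and was named after its values were seen, had 790 to 1107 CPM in the CON libraries and 110, 1117 and 120 CPM in LPS replicates 1 to 3.

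Of 8 other genes of NAD synthesis and conversion tested, 2 had a positive and 6 a negative fold change. Their median log2 value was −0.89 beside 0.01 for all tested genes. NMNAT1 (log2 fold change −0.83 ± 0.43), NMNAT2 (−0.16 ± 0.47), NADSYN1 (0.88 ± 0.47) and NMRK1 act in making NAD. NADK, NADK2, NUDT12 and NNT use or convert NAD or NADH, so the median does not stand for synthesis genes alone. NMNAT1, NMNAT2, NADSYN1 and NUDT12 were named after their values were seen. NMRK1, the kinase of nicotinamide riboside, had 18.9 to 32.3 CPM in the CON libraries and 5.65, 13.4 and 5.31 CPM in the LPS libraries, with a log2 fold change of −1.62 ± 0.44 (edgeR adjusted p = 0.218, DESeq2 adjusted p = 0.0364). NADK2, the mitochondrial NAD kinase, had 101, 40.8 and 59.4 CPM in the CON libraries and 9.13, 41.4 and 10.7 CPM in the LPS libraries. NADK, the cytosolic NAD kinase, lay on the other side, at 93.7 to 151 CPM in the CON libraries and 350, 177 and 164 CPM in the LPS libraries. NNT, the mitochondrial enzyme that moves hydride between NADH and NADP, had 29.7 to 54.7 CPM in the CON libraries and 14.3 to 24.1 CPM in the LPS libraries. edgeR with all 6 libraries called 0 of the 8, DESeq2 called NMRK1, and edgeR without LPS replicate 2 called 2 lower, NMRK1 (adjusted p = 0.0124) and NADK2 (adjusted p = 0.00668).

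Of 11 other enzymes of tryptophan and kynurenine breakdown that were tested, 5 had a positive and 6 a negative fold change, with a median log2 value of −0.15. The 4 with an unadjusted p below 0.05 in edgeR, 36.4% beside 12.5% of all tested genes, were all lower. INMT, which methylates tryptamine, had 73.2 to 126 CPM in the CON libraries and 21.1, 56.9 and 22.7 CPM in the LPS libraries (log2 fold change −1.56 ± 0.44, edgeR adjusted p = 0.220, DESeq2 adjusted p = 0.0381). MAOB, a monoamine oxidase, had 221 to 274 CPM in the CON libraries and 47.0, 158 and 80.4 CPM in the LPS libraries. GOT2, the mitochondrial aspartate aminotransferase, which also acts on kynurenine, had 79.3 to 104 CPM and 31.4 to 71.6 CPM. The groups did not overlap for INMT, MAOB or GOT2, and 9.8% of all tested genes likewise had every LPS library below every CON library. Without LPS replicate 2 edgeR called INMT and MAOB lower. OGDHL, named after its values were seen, had 1.09 to 14.0 CPM in the CON libraries and 0 to 2.52 CPM in the LPS libraries, which overlapped.

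Of 18 NAD-consuming enzymes tested, 6 had a positive and 12 a negative fold change, with a median of −0.20. An unadjusted p below 0.05 in edgeR was reached by 11.1% of them, no more than the 12.5% of all tested genes. These were PARP2, a DNA-damage responsive polymerase of ADP-ribose (8.73 to 13.5 CPM in the CON libraries, 3.07 to 7.18 in the LPS libraries), and BST1, an NAD glycohydrolase (3.65 to 6.70 and 1.52 to 2.94 CPM). edgeR called 0 of the 18, as did DESeq2.

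A list of tryptophan and kynurenine transporters also held WARS1, which joins tryptophan to its tRNA, and 7 of its genes were tested. SLC16A10, an exporter of aromatic amino acids, had 2.14, 7.17 and 4.34 CPM in the CON libraries and 34.1, 4.73 and 13.8 CPM in the LPS libraries. LPS replicate 2 lay inside the CON range, and the log2 fold change of 1.95 ± 0.70 had an adjusted p of 0.305 in edgeR. It was the only one of the 7 with an unadjusted p below 0.05 in edgeR, 14.3% beside 12.5% of all tested genes. Without LPS replicate 2 edgeR called SLC16A10 higher (adjusted p = 0.0250) and SLC7A8, a neutral amino acid transporter named after its values were seen, lower (adjusted p = 0.0202). SLC7A8 had 25, 23 and 11 reads in the CON libraries and 0, 21 and 1 in LPS replicates 1 to 3. Of 8 genes of the aryl hydrocarbon receptor, which kynurenine can activate, and its targets, 4 had a positive and 4 a negative fold change. CYP1B1 alone had an unadjusted p below 0.05 in edgeR, 12.5% of the list and the same share as of all tested genes. It had 0.779 to 1.87 CPM in the CON libraries and 8.70, 2.61 and 12.8 CPM in the LPS libraries. The groups did not overlap for CYP1B1, and its log2 fold change of 2.62 ± 0.62 had an adjusted p of 0.163 in edgeR and 0.00450 in DESeq2. The more abundant targets CYP1A1 and CYP1A2, named after their values were seen, had negative log2 fold changes, −0.29 ± 0.95 and −0.71 ± 0.51. Their adjusted p were 0.927 and 0.608 in edgeR, and the groups overlapped for both.

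**Figure D4:**
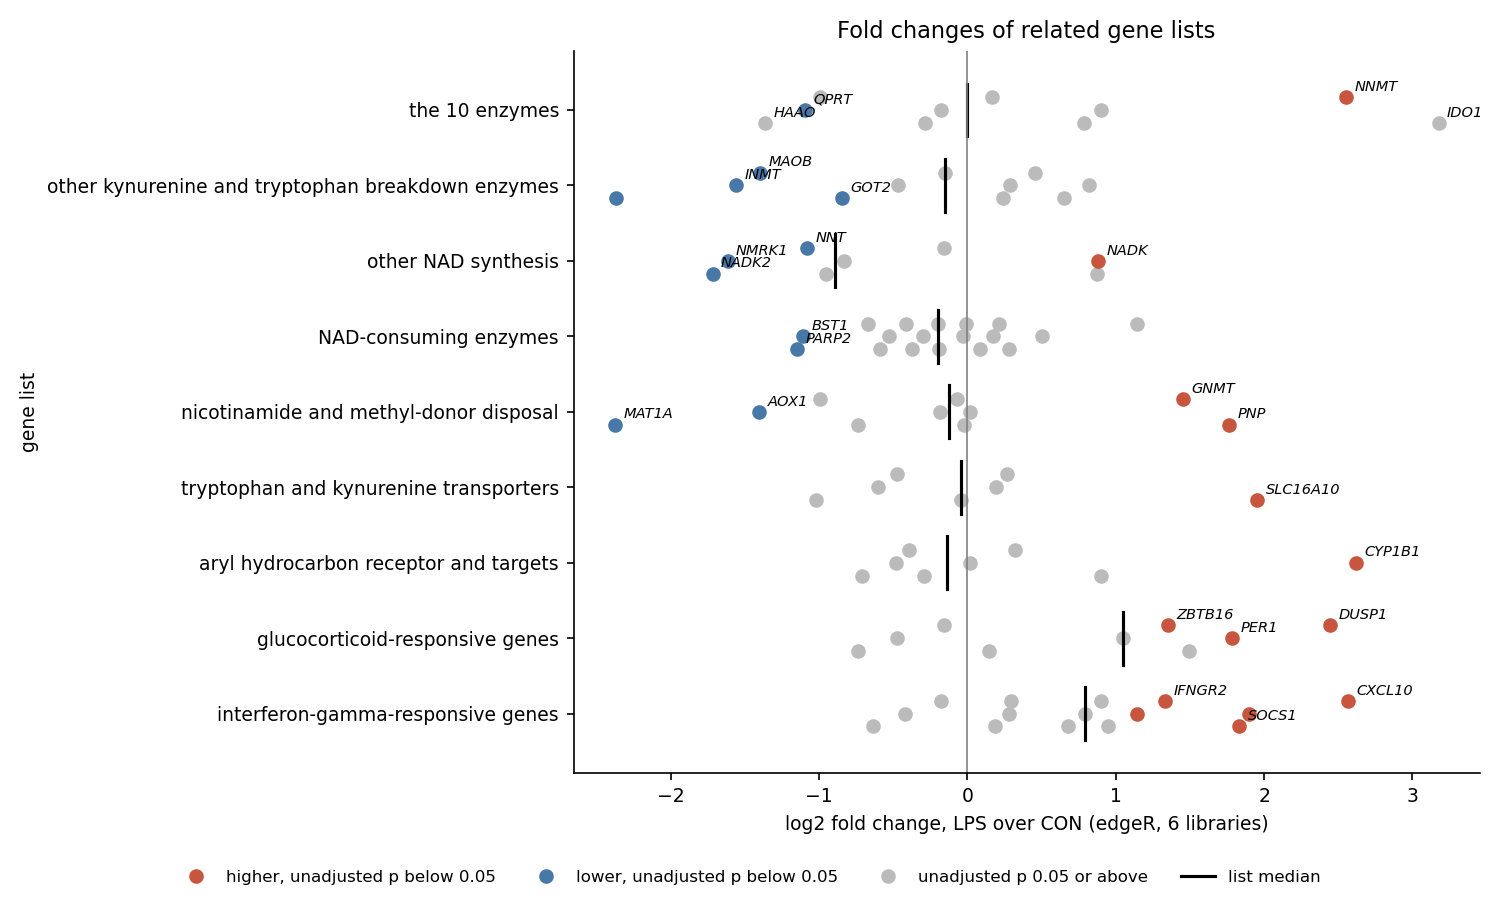
Log2 fold change, LPS over CON, of every tested gene of 9 lists (edgeR, 6 libraries). Each point is a gene, red or blue where the unadjusted p was below 0.05 and the gene was higher or lower, grey otherwise, and the black line is the list median. The medians run from −0.89 for the list marked other NAD synthesis to 1.05 for the glucocorticoid-responsive genes. The former list also holds genes that use or convert NAD, and the transporter list also holds WARS1.

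The gene with the most similar profile to each enzyme over the 6 libraries, by Pearson correlation of log2 CPM with 10755 genes, was also identified. For NNMT it was PDLIM7, with a correlation of 0.999 and levels of 34.1, 35.99 and 46.3 CPM in the CON libraries and 73.0, 51.4 and 71.5 CPM in the LPS libraries. For QPRT it was DNAL4 (0.998), for HAAO KIF26B (0.995), for KYNU ZFYVE16 (0.997) and for NAMPT KCTD20 (0.996). For IDO1 it was SNRPA1 (0.996), for IDO2 CNTNAP1 (0.990), for KMO MPP7 (0.985), for TDO2 RANBP17 (0.984) and for ACMSD ADAT3 (0.976). These are the highest of many correlations over 6 points and are given as descriptions. Among the enzymes themselves, QPRT and NNMT had a correlation of −0.86 and HAAO and NAMPT of −0.90, with all points from the same 6 libraries.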

How the data were processed

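For 6 liver input libraries the authors deposited unnormalized whole-number read counts in 1 table of 31908 Ensembl pig genes, with coordinates and summed exon lengths. The submitters' processing notes name cutadapt 1.9.3 and HISAT2, and builds of chicken and human only. The counting program, its strand setting, its handling of reads from several genes, and the pig build and annotation release are named in none of the sources used here. CON replicates 1 and 2 have more than 1 sequencing entry in the labels and 1 column each. Sample columns that matched no library numbered 0. The IP libraries were not analysed here. A name table gave a symbol to 15029 of the genes.

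The test was that of edgeR 4.0.16 in R 4.3.3 (filterByExpr with a minimum count of 10, TMM, robust glmQLFit and glmQLFTest, no covariates). A call needed an adjusted p (Benjamini-Hochberg, over the 12774 tested genes) below 0.05 together with a change of more than 1.5-fold. SEs of log2 fold changes were obtained from the estimate and the F statistic of its test. Correlations used log2(CPM + 0.5), and ratios within a library added 0.5 to each count. DESeq2 1.42.0 and limma 3.58.1 were alternatives. The scripts were tested on simulated data. The depth, from 4348478 to 19967417 counts, puts 3 reads at 0.204 to 0.652 CPM.

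The members and gene lists were chosen with earlier results of these data known. The genes named were all 10 members, the gene most alike to each, and up to 3 genes in each direction of each pathway list. The latter had an unadjusted p below 0.05 and were taken by smallest p. Of each marker list, up to 2 genes with the highest level per kilobase were chosen, with values printed for most lists that stand beside a result.

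Other marker lists did not enter a comparison beside a member. Their summed CPM in the CON and LPS groups were 124 to 149 and 58.3 to 134 for T or NK cells, 23.3 to 101 and 17.2 to 41.9 for B or plasma cells, 233 to 553 and 204 to 346 for endothelial cells, and 70.1 to 95.4 and 87.8 to 319 for red blood cells or platelets.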

Additional observations from a re-analysis of the deposited data

How the results depend on the processing

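Against 7 genes called higher and 0 lower over all tested genes (790 higher and 809 lower at an unadjusted p below 0.05 in edgeR), scaling by RLE factors called 1 lower, total counts 11 higher and 1 lower, no filter on low counts 536 and 349, at least 10 counts in every library 0 higher (a filter that removes IDO1 and ACMSD), DESeq2 275 and 141, and limma-voom 2 higher. Leaving out 1 library gave 0 to 512 higher and 0 to 470 lower, the most of each without LPS replicate 2. Of the 10 enzymes, edgeR called 0 with all libraries. Without the filter it called 3 (IDO1, HAAO and NNMT), beside 536 higher and 349 lower of the 23529 genes tested in that setting. DESeq2 called 1 (NNMT), and fits without 1 library 0 to 4, the DESeq2 ones chosen after seeing the data. The highest was DESeq2 without LPS replicate 2 (IDO1, HAAO, QPRT and NNMT), which called 10.9% of all genes.

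Some log2 fold changes that were not called changed sign. IDO2 was −0.056 with total counts, −0.03 without CON replicate 1, −0.15 without CON replicate 2 and −0.51 without LPS replicate 3 (DESeq2 −0.012, −0.13 and −0.49 for the last 3), within a range of −0.51 to 0.88 over fits without 1 library in edgeR. KMO was 0.03 without CON replicate 1 and 0.094 without LPS replicate 1 (DESeq2 0.050 and 0.14), with a low of −0.49 over such fits. Without LPS replicate 3, IDO1 was −0.42 (DESeq2 −0.36) and NAMPT −0.15 (DESeq2 −0.13), and without LPS replicate 2 they were 3.77 and 1.13. Total-count scaling moved the median of all genes by −0.13, and the cause of the other changes was not tested. TDO2, KYNU, HAAO, ACMSD, QPRT and NNMT kept their direction under every alternative run.

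Replicate numbers did not pair the samples: deviations of same-numbered libraries correlated at −0.26, 0.22 and 0.03, and 1 of 3 CON libraries was closest to the LPS library of its number. A replicate block gave 42 genes higher and 9 lower and called 1 enzyme, NNMT. The 4 ratios kept their direction in each alternative tried, but NAMPT over QPRT no longer overlapped without LPS replicate 2, nor KYNU over KMO without LPS replicate 2 or CON replicate 3. With 3 libraries a group, IDO1 and ACMSD rest on few reads in most libraries, which limits their precision.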
